A study of Homo sapiens with 8 samples.

Results

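The genes described here are 10 genes of the unfolded protein response of the endoplasmic reticulum (ER): HSPA5, HYOU1, HSP90B1, DNAJB9, SDF2L1, CALR, CANX, HERPUD1, EDEM1 and XBP1. They were chosen by gene name, with earlier results of these data known. On the array each had 1 probe set that carried its symbol and no other, so the group is 10 of the 18417 genes with a probe set of their own. The question put to them was how ER stress genes compared between day 2 and day 0 beside genes of the amino acid response in the same arrays.

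When unfolded proteins gather in the ER, the chaperone BiP is drawn away from 3 membrane sensors. ERN1 (IRE1) then splices XBP1 mRNA, ATF6 is cut to release a transcription factor, and EIF2AK3 (PERK) phosphorylates eIF2alpha. Spliced XBP1 and cut ATF6 raise genes for ER chaperones and for ER-associated degradation, the route by which misfolded proteins leave the ER to be destroyed. Phosphorylated eIF2alpha raises translation of ATF4, which turns on genes of amino acid synthesis, uptake and tRNA charging. The kinase GCN2 reaches the same eIF2alpha and ATF4 when amino acids run short, without ER stress, so ATF4 targets alone do not tell the inputs apart and the chaperone genes serve as the marker of the ER branch. In luminal breast cancer cells XBP1 is known as a highly expressed gene that estrogen receptor also raises.

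RNA of T47D cells, an established luminal breast carcinoma line, was measured in 4 groups of 2 arrays each. The groups were the conditional EglN2 shRNA line at day 2, that line at day 0, the Scr control shRNA line at day 2 and that line at day 0. Day 2 cells had been given doxycycline at 1 ug/ml for 48 h and day 0 cells had not. EglN2 (symbol EGLN2) is an enzyme that hydroxylates prolines and uses oxygen to do so. Both lines carry a lentiviral hairpin construct. The labels do not say whether a line is a clone or a pool, nor whether replicates are separate cultures, and p-values therefore cover the spread between arrays of a group, which may be technical. The EglN2 arm rests on 1 hairpin line. Doxycycline and 48 h of further culture go together in both lines and cannot be told apart.

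Values are log2 levels after robust multi-array averaging (RMA), and a level of one probe set cannot be set against that of another. Array medians over the 21214 tested probe sets lay between 7.81 and 7.86, and replicate arrays correlated at r = 0.992 to 0.996 over probe sets. Precision is limited by having 2 arrays a group, and the median SE of a difference between 2 groups was 0.12 log2. All 8 luminal markers (ESR1, PGR, GATA3, FOXA1, KRT8, KRT18, KRT19 and CDH1) lay above the median of the tested probe sets, as did 0 of 3 measured leukocyte, 0 of 3 endothelial, 1 of 3 fibroblast and 2 of 3 measured basal markers. The basal markers, summed on the linear scale, differed widely between replicate arrays of day 0. The sums were 2467 and 10707 in the EglN2 shRNA line and 2255 and 7628 in the Scr line. At day 2 they were 5823 and 9941 in the EglN2 shRNA line and 4621 and 7128 in the Scr line. The target's probe set, shared in the gene table by EGLN2 and the readthrough RAB4B-EGLN2, gave 8.26 and 8.29 at day 2, against 8.85 and 9.04 at day 0, in the EglN2 shRNA line. Scr cells gave 8.81 and 8.90 at day 2, against 8.97 and 9.0 at day 0. The EglN2 arrays of day 2 were below all others, with a change of -0.67 (SE 0.11), which did not pass the adjustment over all probe sets (limma adjusted p = 0.134).

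Promoters of the members carry the short motifs through which the response is known to act, and they are shown because the members are meant as a readout of those motifs. ATF6 and XBP1 act through the ER stress response element (ERSE: CCAAT, then a spacer, then CCACG) and its shorter form ERSE-II (ATTGG, 1 base, CCACG). The UPR element searched was TGACGTGG, and the C/EBP-ATF element bound by ATF4 was searched as TGATGNAA. Both strands were searched in the 250 bases before each RefSeq transcript start (build GRCh38.p14). An exact ERSE or ERSE-II lay before a start of 8 of the 10 members, against 0.125% of 35116 such windows, 44 in all. That share counts windows, the members' own among them. A member counted if any of its starts matched, and CANX has 4 starts and XBP1 2. The members were picked as genes of this response, so the count is a description and not a test. ERSE was found for HSPA5, HSP90B1, CALR, CANX and XBP1, and ERSE-II for HYOU1, SDF2L1 and HERPUD1. The stretches are given 5′ to 3′ on the strand of the gene, with the motifs in capitals:
HSP90B1, chr12:103930204-103930351 (+): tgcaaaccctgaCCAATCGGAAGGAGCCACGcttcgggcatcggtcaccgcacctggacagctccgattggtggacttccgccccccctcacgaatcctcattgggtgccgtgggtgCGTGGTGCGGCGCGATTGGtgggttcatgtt
CALR, chr19:12938372-12938414 (+): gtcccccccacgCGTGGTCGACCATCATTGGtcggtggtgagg
CANX, chr5:179698766-179698808 (+): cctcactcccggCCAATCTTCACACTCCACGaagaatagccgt
XBP1, chr22:28800591-28800633 (-): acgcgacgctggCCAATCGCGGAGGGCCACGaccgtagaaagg
SDF2L1, chr22:21642102-21642136 (+): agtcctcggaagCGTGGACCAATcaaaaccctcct
HYOU1, chr11:119057262-119057402 (-): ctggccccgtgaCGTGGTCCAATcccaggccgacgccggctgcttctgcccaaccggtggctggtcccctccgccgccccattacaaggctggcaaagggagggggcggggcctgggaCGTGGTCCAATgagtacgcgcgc
HSP90B1 and HYOU1 each held 2 copies. No ERSE or ERSE-II in these letters was in the windows of DNAJB9 and EDEM1. TGACGTGG was in the window of HYOU1 alone among the members, where it overlaps the first ERSE-II, and in 0.612% of all windows.

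HSPA5 and HERPUD1 are given over the whole 250 bases, since HSPA5 encodes the classical marker of the response and HERPUD1 had the highest change of the members. In HSPA5 the capitals mark ERSE, at positions -66 to -48 from the start:
HSPA5, chr9:125241344-125241593 (-): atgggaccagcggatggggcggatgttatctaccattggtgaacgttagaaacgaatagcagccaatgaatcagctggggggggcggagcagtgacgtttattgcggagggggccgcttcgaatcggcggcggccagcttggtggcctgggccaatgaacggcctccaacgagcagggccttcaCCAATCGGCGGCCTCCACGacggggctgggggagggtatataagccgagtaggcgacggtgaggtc
In HERPUD1 the first capitals mark TGATGNAA read on the other strand (TTGCATCA, at positions -176 to -169) and the second mark ERSE-II, at -117 to -107:
HERPUD1, chr16:56931892-56932141 (+): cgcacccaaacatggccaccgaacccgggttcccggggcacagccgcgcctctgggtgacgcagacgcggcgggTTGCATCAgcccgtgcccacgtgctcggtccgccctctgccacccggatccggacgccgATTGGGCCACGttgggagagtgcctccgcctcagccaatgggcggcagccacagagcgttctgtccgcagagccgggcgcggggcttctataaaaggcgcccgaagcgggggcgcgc
HERPUD1 was the only member with TGATGNAA in its window, which 3.14% of all windows held. For comparison, the window of ASNS (asparagine synthetase, a known ATF4 target) held it at positions -68 to -61:
ASNS, chr7:97872457-97872488 (-): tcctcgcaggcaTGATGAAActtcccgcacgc
Of the other lists described below, 5 of 24 amino acid response genes with a window and 3 of 13 regulators of the integrated stress response held TGATGNAA, and 0 of 24 and 0 of 13 held ERSE or ERSE-II. ERSE or ERSE-II was likewise in 0 of 8 sensors and processing enzymes and 0 of 16 degradation genes. It was in 0 of 21 ER entry genes and 0 of 17 heat shock chaperones. Of other ER chaperones 1 of 11 held it (CRELD2), and of isomerases and oxidases 2 of 11 (PDIA6 and ERO1B). TGATGNAA was also in 1 of 21 ER entry genes and 1 of 17 heat shock chaperones. A match is a run of letters and not a shown binding site.

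After 48 h of doxycycline no member passed the test in either line. The change of a member, day 2 minus day 0, ran between -0.12 and 0.36 in the EglN2 shRNA line and between -0.04 and 0.39 in the Scr line (log2). In the EglN2 shRNA line 0 of 10 passed an adjusted p of 0.05, against 0.00943% of all tested probe sets, and in the Scr line 0 of 10, against 0%. HERPUD1 had the highest member change in both lines, near 1.3-fold, while the chaperones HSPA5, HSP90B1, CALR and CANX had changes of 0.20 or less in both.

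**Figure D1:**
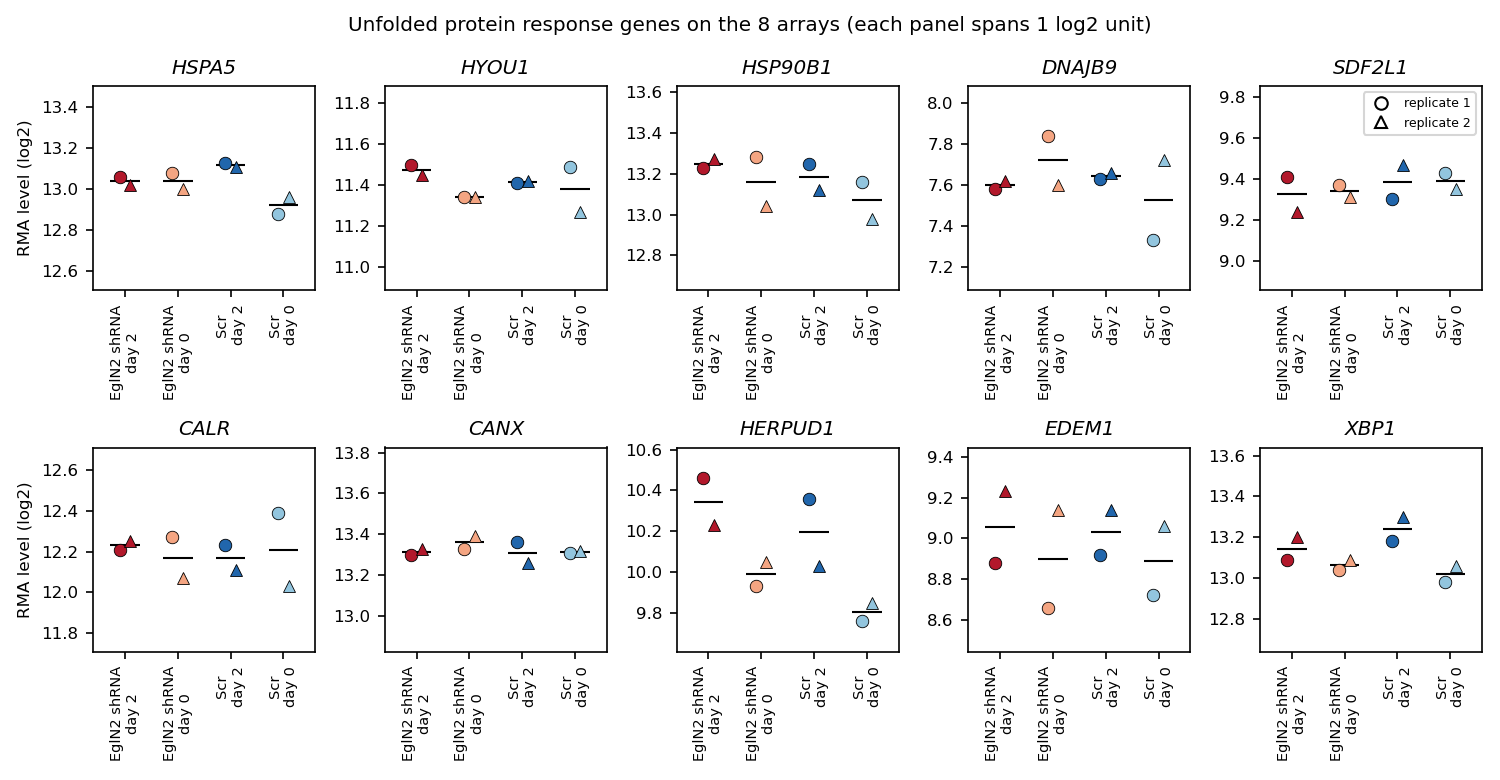
Log2 level (RMA) of each of the 10 members on the 8 arrays, 1 panel per gene, each spanning 1 log2 unit; circles are replicate 1 and triangles replicate 2, grouped as EglN2 shRNA day 2, EglN2 shRNA day 0, Scr day 2 and Scr day 0, and bars are group means. HERPUD1 lies higher at day 2 than at day 0 within each line, and HSPA5 does so in the Scr line only.

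BiP itself, encoded by HSPA5, is the ER's main Hsp70 chaperone and the classical marker of ER stress. HSPA5 read 13.06 and 13.02 at day 2, against 13.08 and 13.00 at day 0, in the EglN2 shRNA line, and 13.13 and 13.11 at day 2, against 12.88 and 12.96 at day 0, in the Scr line. In the EglN2 shRNA line the day 2 values lay inside the day 0 pair, and in the Scr line they lay above it. The change was 0.00 (SE 0.10, 95% interval -0.22 to 0.22) in the EglN2 shRNA line, and 0.20 (SE 0.10, -0.02 to 0.42, limma adjusted p = 0.422) in the Scr line. In fold terms the intervals were 0.858 to 1.17 in the EglN2 shRNA line and 0.985 to 1.34 in the Scr line.

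HYOU1 (Grp170) exchanges the nucleotide of BiP and holds unfolded proteins. It read 11.50 and 11.45 at day 2, against 11.34 and 11.34 at day 0, in the EglN2 shRNA line, and 11.41 and 11.42 at day 2, against 11.49 and 11.27 at day 0, in the Scr line. The day 2 arrays were above those of day 0 in the EglN2 shRNA line and between them in the Scr line. The changes were 0.14 (SE 0.11, adjusted p = 0.971) in the EglN2 shRNA line and 0.04 (SE 0.11, adjusted p = 0.908) in the Scr line, with 95% intervals of -0.11 to 0.38 in the EglN2 shRNA line and -0.21 to 0.28 in the Scr line.

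DNAJB9 (ERdj4), a J-domain partner of BiP that also holds IRE1 in check, is known as a sensitive target of spliced XBP1. It read 7.58 and 7.62 at day 2, against 7.84 and 7.60 at day 0, in the EglN2 shRNA line, and 7.63 and 7.66 at day 2, against 7.33 and 7.72 at day 0, in the Scr line. The day 0 pairs spanned the day 2 pairs in the Scr line and overlapped them in the EglN2 shRNA line. The changes, -0.12 in the EglN2 shRNA line and 0.12 in the Scr line (SE 0.14 each), had opposite signs within the spread of the arrays. SDF2L1, an ER-resident partner of J-domain co-chaperones, read 9.41 and 9.24 at day 2, against 9.37 and 9.31 at day 0, in the EglN2 shRNA line, and 9.30 and 9.47 at day 2, against 9.43 and 9.35 at day 0, in the Scr line. Its pairs overlapped in both lines, and its changes were -0.02 in the EglN2 shRNA line and -0.01 in the Scr line (SE 0.11 each).

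HSP90B1 (GRP94) is the Hsp90 of the ER. It read 13.23 and 13.27 at day 2, against 13.28 and 13.04 at day 0, in the EglN2 shRNA line, and 13.25 and 13.12 at day 2, against 13.16 and 12.98 at day 0, in the Scr line. In both lines the day 2 pair overlapped the day 0 pair, with changes of 0.09 in the EglN2 shRNA line and 0.12 in the Scr line (SE 0.12 each).

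CALR (calreticulin) and CANX (calnexin) are the lectin chaperones that hold newly made glycoproteins until they are folded. CALR read 12.21 and 12.25 at day 2, against 12.27 and 12.07 at day 0, in the EglN2 shRNA line, and 12.23 and 12.11 at day 2, against 12.39 and 12.03 at day 0, in the Scr line. CANX read 13.30 and 13.33 at day 2, against 13.33 and 13.39 at day 0, in the EglN2 shRNA line, and 13.36 and 13.26 at day 2, against 13.31 and 13.32 at day 0, in the Scr line. The CANX values kept within 0.13 over all 8 arrays, the narrowest range of the 10 members. Day 2 and day 0 pairs overlapped for both genes in both lines, meeting at 13.33 for CANX in the EglN2 shRNA line. The changes of CALR were 0.06 in the EglN2 shRNA line and -0.04 in the Scr line (SE 0.14 each), and those of CANX were below 0 in both, by less than 1 SE (0.10).

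HERPUD1 is an ER membrane protein that gathers the degradation machinery, and its gene is known to be raised both through ATF6 and XBP1 and through PERK and ATF4. It read 10.46 and 10.23 at day 2, against 9.93 and 10.05 at day 0, in the EglN2 shRNA line, and 10.36 and 10.03 at day 2, against 9.76 and 9.85 at day 0, in the Scr line. Within each line both day 2 arrays lay above both day 0 arrays, but across lines the lower Scr value of day 2 (10.03) was just under the higher EglN2 value of day 0 (10.05). The change was 0.36 (SE 0.14, 95% interval 0.05 to 0.66) in the EglN2 shRNA line and 0.39 (SE 0.14, 0.08 to 0.70) in the Scr line. In fold terms these were 1.28 (1.04 to 1.58) in the EglN2 shRNA line and 1.31 (1.06 to 1.62) in the Scr line. HERPUD1 was the one member with an unadjusted p under 0.05 in the direction of a rise, in both lines, which 2.73% of all tested probe sets had in the EglN2 shRNA line and 7.49% in the Scr line. Neither line passed the adjustment (limma adjusted p = 0.768 in the EglN2 shRNA line and 0.329 in the Scr line). With 1 array left out the change was between 0.24 and 0.47 in the EglN2 shRNA line, lowest without day 2 replicate 1, and between 0.23 and 0.56 in the Scr line, lowest without day 2 replicate 1. Most alternatives leave the values of a line's own arrays as they were and so cannot move its change. Those other than leaving out an array gave 0.35 to 0.36 in the EglN2 shRNA line and 0.31 to 0.39 in the Scr line. In neither line did the unadjusted p stay under 0.05 throughout.

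EDEM1, a lectin that draws terminally misfolded glycoproteins towards degradation, read 8.88 and 9.23 at day 2, against 8.66 and 9.14 at day 0, in the EglN2 shRNA line, and 8.92 and 9.14 at day 2, against 8.72 and 9.06 at day 0, in the Scr line. Replicate 2 was above replicate 1 in all 4 groups, and the residual SD of EDEM1 was 0.25, the widest of the members, against a median of 0.12 over all tested probe sets. The changes were 0.16 in the EglN2 shRNA line and 0.14 in the Scr line (SE 0.19 each).

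XBP1 is the transcription factor that IRE1 activates by splicing, and it is also a target of ATF6. It read 13.09 and 13.20 at day 2, against 13.04 and 13.09 at day 0, in the EglN2 shRNA line, and 13.18 and 13.30 at day 2, against 12.98 and 13.06 at day 0, in the Scr line. The day 2 arrays were above those of day 0 in the Scr line, and touched at 13.09 in the EglN2 shRNA line. The changes were 0.08 (SE 0.10, adjusted p = 0.98) in the EglN2 shRNA line and 0.22 (SE 0.10, adjusted p = 0.41) in the Scr line. One probe set sums XBP1 transcripts, so the spliced form was not measured.

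Counted over the group, 6 of 10 members had a change above 0 in the EglN2 shRNA line, where HSPA5 was at exactly 0, and 7 of 10 in the Scr line. Over all tested probe sets 50.6% were above 0 in the EglN2 shRNA line and 47.5% in the Scr line. The median member change was 0.07 in the EglN2 shRNA line and 0.12 in the Scr line, beside medians over all tested probe sets of 0.01 in the EglN2 shRNA line and -0.01 in the Scr line. Without EglN2 shRNA day 0 replicate 2 the members' median in the EglN2 shRNA line was -0.02. Both day 2 arrays were above both day 0 arrays for 2 members in the EglN2 shRNA line (HERPUD1 and HYOU1), against 15.2% of all tested probe sets, and for 3 in the Scr line (HSPA5, HERPUD1 and XBP1), against 23% of them.

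**Figure D2:**
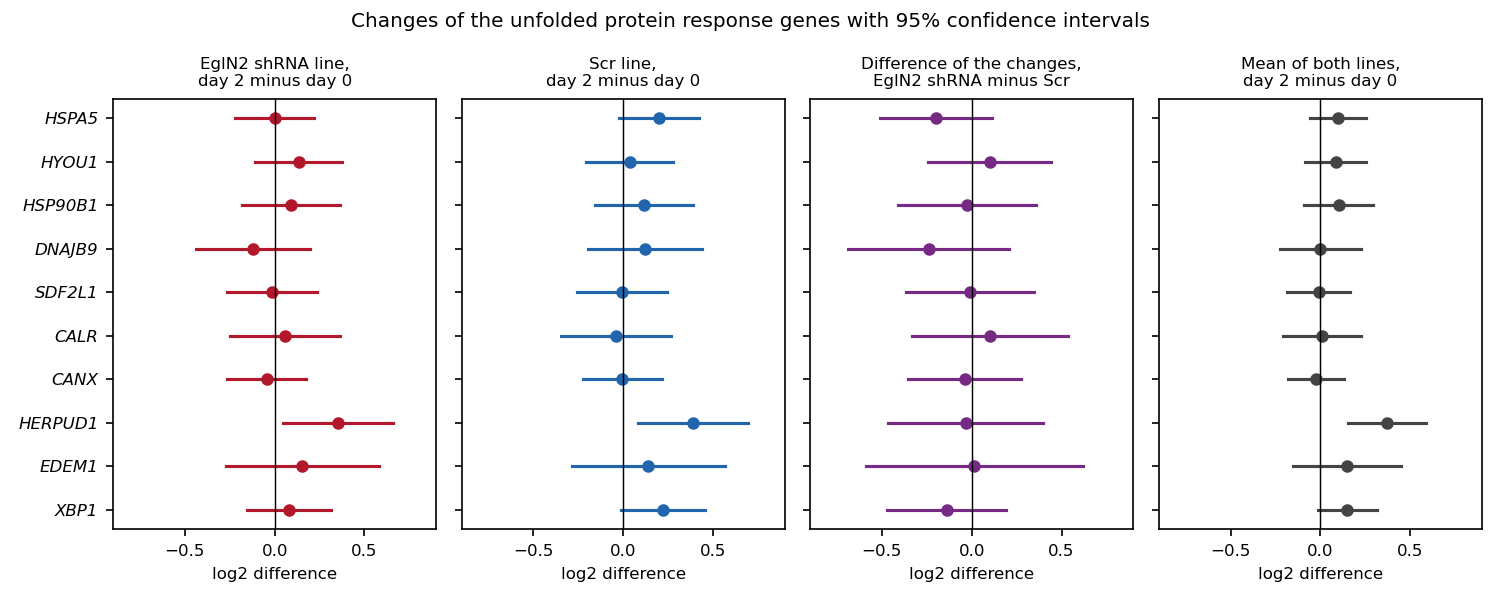
Change in log2 level, day 2 minus day 0, of each member in the EglN2 shRNA line and in the Scr line, with 95% intervals from the limma fit (2 arrays per group, 8 in the fit). Further panels give the difference of these changes, EglN2 shRNA minus Scr, and their mean over both lines. The intervals of HERPUD1 are clear of 0 in both lines and in the mean, and those of the other 9 members cross 0. In the difference the intervals of all members cross 0.

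The test of the EglN2 hairpin is the difference between the changes of the lines, EglN2 shRNA minus Scr. It ran between -0.24 (DNAJB9) and 0.10 (CALR and HYOU1) over the members, with a median of -0.03 (0.03 after quantile normalization), and 7 of 10 were below 0. For HSPA5 it was -0.20 (SE 0.14, 95% interval -0.51 to 0.11) and for HERPUD1 -0.04 (SE 0.19, -0.47 to 0.40). Of the members, 0 of 10 passed the adjustment, against 0% of all tested probe sets, and 0 of 10 had an unadjusted p under 0.05, against 7.12%. HSPA5 alone had changes that did not overlap between the lines, lower in the EglN2 shRNA line, against 20.5% of all tested probe sets. The interval of the difference for HSPA5 spans a fold of 0.701 to 1.08, so a smaller change of BiP mRNA in the EglN2 shRNA line within that range could not be told from no difference with these arrays.

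Between the lines at day 2, the members differed by -0.10 (XBP1) to 0.15 (HERPUD1), EglN2 shRNA minus Scr, with a median of 0.02, which was just below 0 after quantile normalization or without either Scr day 2 array. In this comparison 0 of 10 passed the adjustment, against 0.0754% of all tested probe sets, and 0 of 10 had an unadjusted p under 0.05, against 5.19%. Arrays of the lines did not overlap for 3 members, HYOU1 higher and HSPA5 and DNAJB9 lower in the EglN2 shRNA line, against 30.4% of all tested probe sets. Before doxycycline, at day 0, the members differed by -0.05 to 0.20 with a median of 0.05 (-0.02 after quantile normalization). There 0 of 10 passed the adjustment, against 0%, and 0 of 10 had an unadjusted p under 0.05, against 10.4%. The 3 members without overlap at day 0 (HSPA5, CANX and HERPUD1) were higher in the EglN2 shRNA line, against 45% of all tested probe sets without overlap. HSPA5 stood lower in the EglN2 shRNA line at day 2 and higher at day 0, in both cases without passing the test. Over both days together 0 of 10 members passed, against 0.033% of all tested probe sets, and 0 of 10 had an unadjusted p under 0.05, against 8.07%.

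Averaging the change over both lines uses all 8 arrays and gives the narrowest intervals. In that mean 0 of 10 members passed the adjustment, against 0.141% of all tested probe sets, and 7 of 10 were above 0, against 47.8%. For HERPUD1 the value was 0.37 (SE 0.10, 95% interval 0.16 to 0.59), a fold of 1.29 with an interval of 1.11 to 1.5. Its unadjusted p was under 0.05, as was that of 6.47% of all tested probe sets in the direction of a rise, and its limma adjusted p was 0.234. For HSPA5 it was 0.10 (SE 0.07) with a fold interval of 0.962 to 1.19. The upper bounds of the chaperones lay between 1.10-fold for CANX and 1.23-fold for HSP90B1, at 95% confidence. XBP1 and EDEM1 had mean changes of 0.15 each, with SEs of 0.07 and 0.13.

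**Figure D3:**
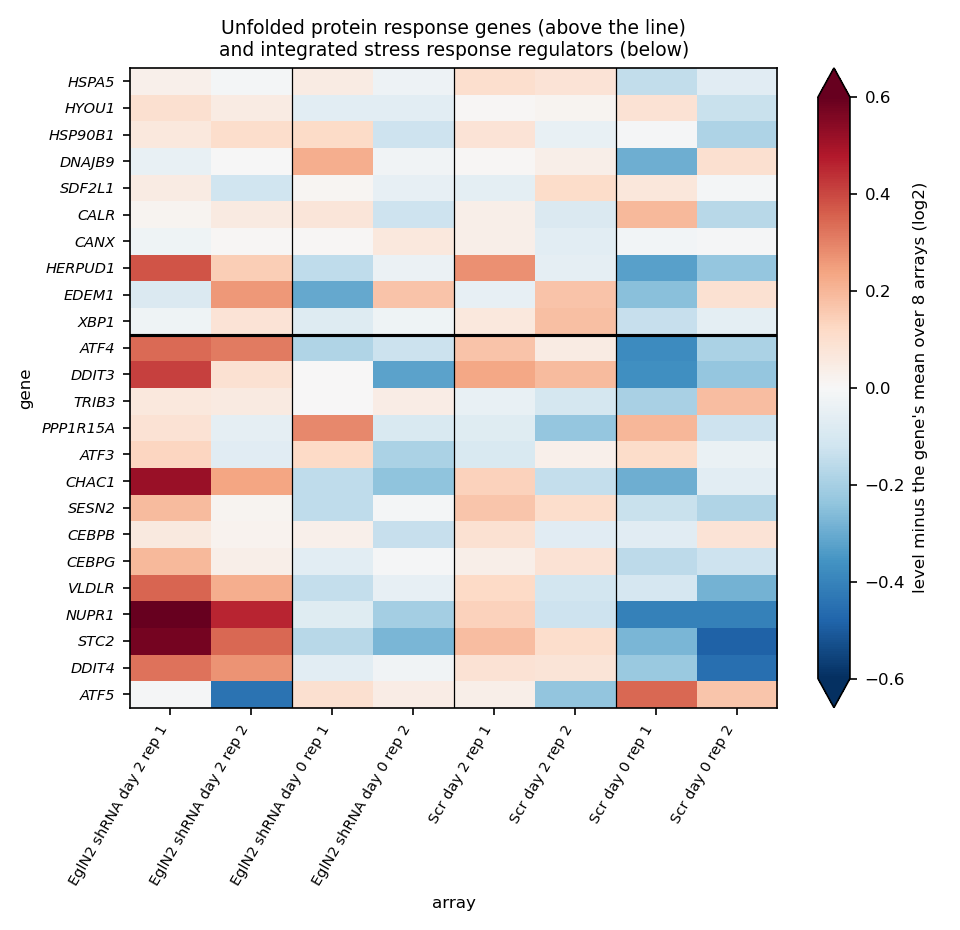
Log2 level of each member minus its mean over the 8 arrays, above a line, and of 14 integrated stress response regulators below it, as colour (red above the mean, blue below, full colour beyond the ends of the scale at -0.6 and 0.6); columns are the arrays in the order EglN2 shRNA day 2, EglN2 shRNA day 0, Scr day 2 and Scr day 0. HERPUD1 runs from -0.32 to 0.38 and ATF4 from -0.38 to 0.34, while HSPA5 keeps between -0.15 and 0.10 and CANX between -0.07 and 0.07.

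The rest of the ER machinery, from lists of the pathway's genes, gave no call in the mean over both lines, where 0.141% of all tested probe sets were called. Of the sensors and their processing enzymes, 6 of 8 had a probe set of their own, and their median change was -0.01 in the EglN2 shRNA line and 0.09 in the Scr line. EIF2AK3 gave -0.07 in the EglN2 shRNA line and 0.07 in the Scr line, ERN1 gave 0.04 in the EglN2 shRNA line and -0.16 in the Scr line, and ATF6 gave -0.05 in the EglN2 shRNA line and 0.15 in the Scr line. MBTPS1 gave 0.255 in the EglN2 shRNA line and 0.09 in the Scr line. MBTPS2 gave -0.12 in the EglN2 shRNA line and 0.26 in the Scr line. An unadjusted p under 0.05 for a rise was reached by 1 of 6 in each line, MBTPS1 in the EglN2 shRNA line (against 2.73% of all tested probe sets) and MBTPS2 in the Scr line (against 7.49%). The 12 other ER chaperones and co-chaperones had a median of 0.03 in the EglN2 shRNA line and 0.13 in the Scr line, with 7 of 12 above 0 in the EglN2 shRNA line and 10 of 12 in the Scr line. HSPA13, an Hsp70-like ATPase of microsomes, had the widest split, -0.16 in the EglN2 shRNA line and 0.72 in the Scr line, and DNAJC3 (p58IPK, a BiP co-chaperone) gave -0.40 in the EglN2 shRNA line and 0.20 in the Scr line. None of these passed the adjustment.

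Disulfide isomerases and oxidases, which form and shuffle the bonds of secreted proteins, had a median of 0.08 in the EglN2 shRNA line and 0.20 in the Scr line over 10 measured genes, and all 10 were above 0 in the Scr line. An unadjusted p under 0.05 for a rise was reached by 2 of 10 in the Scr line, against 7.49% of all tested probe sets. In the EglN2 shRNA line 0 of 10 reached it, against 2.73%. The 2 were PDIA6 (0.315, SE 0.10) and ERO1B (0.58, SE 0.18), with limma adjusted p of 0.289 and 0.290. DNAJC10 (ERdj5), a reductase that works with BiP and EDEM1, gave -0.58 in the EglN2 shRNA line and 0.25 in the Scr line. It was lower by 0.83 in the EglN2 shRNA line at day 2 (log2 difference -0.83, limma adjusted p = 0.0385), and was the only gene of the ER lists called in that comparison. That is 1 of 10 in its list, against 0.0754% of all tested probe sets. The call was lost when any 1 array other than EglN2 shRNA day 2 replicate 2 was left out (adjusted p between 0.0959 and 0.475), after array centring (0.07) and with all probe sets of the table (0.27). ER-associated degradation had medians of -0.04 in the EglN2 shRNA line and -0.01 in the Scr line over 19 genes. In the Scr line 2 of 19 had an unadjusted p under 0.05 for a rise, UBE2J1 (0.405) and EDEM2 (0.325), against 7.49% of all tested probe sets. DERL3 (-0.275) had one for a fall, and in the EglN2 shRNA line 0 of 19 had one in either direction. Genes of entry into the ER and N-glycosylation had medians of 0.02 in the EglN2 shRNA line and 0.14 in the Scr line over 25 genes, and the difference between the changes of the lines was below 0 for 22 of 25 of them. At day 0, before doxycycline, the EglN2 shRNA line was above the Scr line for 24 of 25 (median difference 0.15), and at day 2 for 13 of 25 (median 0.02), with none called. The day 0 median was 0.075 without Scr day 0 replicate 1. The difference of the changes contains the day 0 difference, so these counts are not separate results. The share of all tested probe sets with the same signs was not counted. Their median was 0.005 both at day 0 and for the difference of the changes.

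The contrast with the ATF4 arm is in size and number. It is limited by level, since HSPA5, HSP90B1, CANX and XBP1 lay at percentiles 99.2 to 99.4 of the tested probe sets. CALR lay at 97.9 and HYOU1 at 95.5, and saturation is unknown. The 30 measured amino acid response genes had a median change of 0.36 in the EglN2 shRNA line and 0.35 in the Scr line, and 27 of 30 were above 0 in each. An unadjusted p under 0.05 for a rise was reached by 21 of 30 in the EglN2 shRNA line, against 2.73% of all tested probe sets, and by 19 of 30 in the Scr line, against 7.49%. Of the ER stress members 1 of 10 did so in each line, and 0 of the 30 amino acid genes passed the adjustment in either line alone. In the mean over both lines 6 of 30 passed the adjustment upwards and 0 of 10 members did, against 0.118% of all tested probe sets. The 6 were PSAT1 (0.77), PHGDH (0.54) and PSPH (0.56) of serine synthesis, ALDH1L2 (0.82) of mitochondrial folate metabolism, the cysteinyl-tRNA synthetase CARS1 (0.57) and PCK2 (0.56), a mitochondrial enzyme that makes phosphoenolpyruvate, with limma adjusted p between 0.0315 and 0.0388. Leaving out any single array left 0 of the 30 called, except that ALDH1L2 was still called without EglN2 shRNA day 2 replicate 1, and fitting all probe sets of the table also left 0. SLC7A5, a large neutral amino acid transporter, had the opposite sign in both lines, with -0.42 in the EglN2 shRNA line and -0.45 in the Scr line. This list and the members had both been chosen with earlier results of these arrays known. Neither the direction of the list nor its contrast with the members is independent evidence.

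ATF4, the factor shared by PERK and GCN2, read 12.03 and 12 at day 2, against 11.51 and 11.56 at day 0, in the EglN2 shRNA line, and 11.86 and 11.74 at day 2, against 11.31 and 11.50 at day 0, in the Scr line. Its day 2 arrays lay above all day 0 arrays of both lines. The changes were 0.48 in the EglN2 shRNA line and 0.40 in the Scr line, and the mean of 0.44 had a limma adjusted p of 0.0837. The 14 regulators of the integrated stress response had a median of 0.26 in the EglN2 shRNA line and 0.20 in the Scr line, with 7 of 14 in the EglN2 shRNA line and 6 of 14 in the Scr line at an unadjusted p under 0.05 for a rise, beside the same shares of all tested probe sets as above. STC2, a secreted glycoprotein known as an ATF4 target, passed in the mean over both lines (0.60, limma adjusted p = 0.0392). It was 1 of 14, against 0.118% of all tested probe sets called upwards. The call was lost when any 1 array was left out, under quantile normalization and with all probe sets of the table. NUPR1 (0.54, adjusted p = 0.0556) and DDIT3, the gene of CHOP (0.46, adjusted p = 0.153), did not pass. ATF4 and NUPR1 were called in some alternative fits, as was the pair HSPH1 and DNAJA1 of the next list, and these are given with the processing alternatives. Cytosolic heat shock chaperones, which answer misfolding outside the ER, had medians of -0.26 in the EglN2 shRNA line and -0.13 in the Scr line over 14 genes, with 14 of 14 below 0 in the EglN2 shRNA line and 10 of 14 in the Scr line, and none called in the reported fit. The mean change of HERPUD1 over both lines, 0.37, was the highest of the members and close to the median of the amino acid response genes, 0.35. This sets the top gene of one group beside the median of another, and an ATF4 input to HERPUD1 was not tested.

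**Figure D4:**
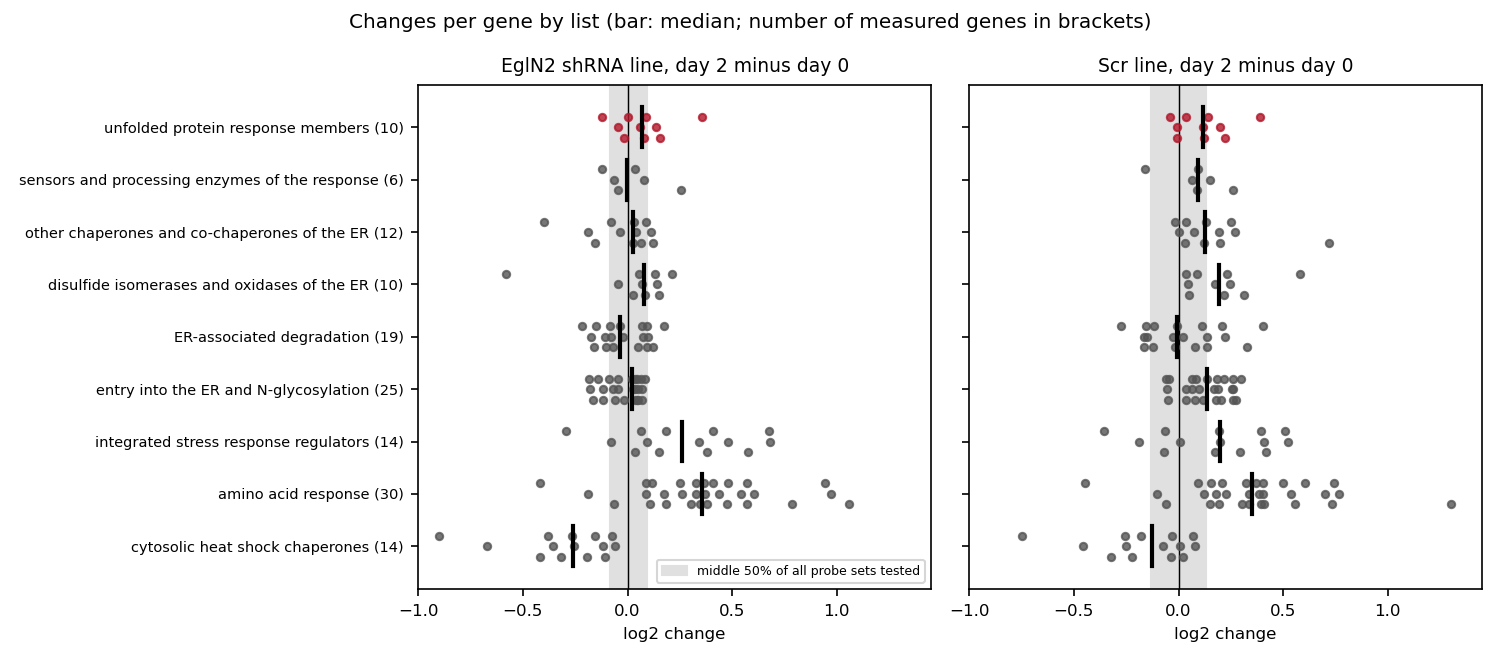
Change in log2 level, day 2 minus day 0, of every measured gene in the members and the other lists, for the EglN2 shRNA line and the Scr line; points are genes (members in red), bars are list medians, and the grey band spans the interquartile range of all tested probe sets. The members' medians (0.07 in the EglN2 shRNA line and 0.12 in the Scr line) lie near 0, the amino acid response medians (0.36 in the EglN2 shRNA line and 0.35 in the Scr line) above it, and the heat shock medians (-0.26 in the EglN2 shRNA line and -0.13 in the Scr line) below it.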

How the data were processed

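Total RNA of T47D cells had been hybridised to Human Gene 1.0 ST arrays, 2 for each of 4 groups, with groups and replicate numbers taken from the sample titles. Per the submitters' processing notes, the authors made the deposited log2 levels with Affymetrix Expression Console and RMA, whose versions the notes do not state. That method subtracts background, equalises the arrays and combines the probes of each set, and it understates changes of dim probe sets. No further scaling was applied. Scanner files were not used here, so signal over background and saturation are unknown.

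The platform's table gave 1 gene for 19460 of 33297 probe sets, several for 1754 and none for 12083, and RefSeq (GRCh38.p14) matched 19429 of the single names by gene ID. The 21214 named probe sets were fitted with limma 3.58.1 in R 4.3.3 (4 group means, 8 arrays, lmFit and eBayes, two-sided, Benjamini-Hochberg over all 21214, threshold 0.05). The fit had 4 residual and 5.53 prior degrees of freedom. There were 7 comparisons. The fit was tested on simulated data with known changes. A gene of several single-gene probe sets was represented by the one with the highest mean level.

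The text names all members and EGLN2. Of each list, up to 4 genes with the smallest p in each line's change could be named. Not all of these are named, and those named are not always the ones with the smallest p. SLC7A5 and the ASNS promoter were added after the values were seen. Members and lists were chosen with earlier results of these data known. Promoter sequences are those of RefSeq, 250 bases before each start, and all 10 members matched. Alternatives were array centring, quantile normalization, a filter on dim probe sets (log2 level of 6 on at least 2 arrays), a prior variance that follows the level, all or single-gene probe sets only, a replicate block, only the arrays compared, and leaving out each array. Replicate numbers were not taken as pairs, since the labels do not say that they mark a shared culture or day.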

Additional observations from a re-analysis of the deposited data

Results flagged for a closer look

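Each gene below belongs to a pathway list and not to the 10 members, and each is given because both day 2 arrays lay on one side of both day 0 arrays in the EglN2 shRNA line and on the other side in the Scr line. The genes looked at were the 10 members and 55 list genes already picked for the smallest p in either line, so their number is conditioned on large changes and says nothing of the lists. Among them were 9 such genes, and over all tested probe sets 5.69% met the same rule. The difference of the changes, EglN2 shRNA line minus Scr line, was tested as an interaction in the limma fit, and no gene passed (adjusted p between 0.596 and 0.702). The difference was -0.83 for DNAJC10, the ER reductase, which gave -0.58 in the EglN2 shRNA line and 0.25 in the Scr line. It was -0.60 for DNAJC3, a BiP co-chaperone, which gave -0.40 in the EglN2 shRNA line and 0.20 in the Scr line. HSPA4L, a cytosolic Hsp110, differed by -0.45, and ERLEC1, a lectin of ER-associated degradation, by -0.40. MBTPS2, the site-2 protease that cuts ATF6, differed by -0.38, with -0.12 in the EglN2 shRNA line and 0.26 in the Scr line. SRP54, of the signal recognition particle, differed by -0.36, TOR1A by -0.35 and OSTC, an oligosaccharyltransferase subunit, by -0.30. DERL3, a derlin of the degradation channel, had a difference of 0.35, with 0.08 in the EglN2 shRNA line and -0.28 in the Scr line.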

How the results depend on the processing

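Under the alternatives 0 of 1090 member values passed an adjusted p of 0.05, and 78 had the other sign than reported. HERPUD1 in the mean of both lines stayed between 0.29 and 0.46 with 1 array left out and had an unadjusted p under 0.05 in all 15 alternatives, with a smallest limma adjusted p of 0.124. Of 1044 list medians, 35 had the other sign. Counts of called probe sets among all tested moved in 43 of 109 cases. In the mean change over both lines, 30 were called as reported, 76 with a prior variance that follows the level and 0 with all probe sets of the table. In the mean difference between the lines, 7 were called as reported, 4 after array centring, 13 after quantile normalization, 14 with the level-dependent prior, 11 with single-gene probe sets only and 0 with all probe sets. At day 2, 16 were called between the lines as reported, 26 with the level-dependent prior, and 0 both with all probe sets and with only the arrays compared. The level-dependent prior gave 6 in the Scr line and 2 for the difference of changes, where 0 were reported. In the EglN2 shRNA line the 2 calls became 0 with all probe sets and with only its own arrays. With a replicate block the counts were 13 in the EglN2 shRNA line, 42 in the Scr line, 32 at day 2, 150 in the mean change and 18 in the mean line difference, and 0 of 10 members. The block called ATF4, NUPR1 and STC2, 10 of the 30 amino acid genes higher and SLC7A5 lower, and HSPH1 and DNAJA1 lower in the mean change. The level-dependent prior called the same 3 regulators and the same 2 heat shock genes, 12 amino acid genes higher and SLC7A5 lower. With dim probe sets left out, 45 probe sets were called in the mean change, among them NUPR1, STC2 and 8 of the 30 amino acid genes, all higher. Amino acid genes called higher numbered 5 after array centring, 5 after quantile normalization and 7 with single-gene probe sets only. Deviations of replicate 1 correlated between groups at 0.0981 to 0.271, over 0.1 in 5 of 6 pairs of groups. For EDEM1, with replicate 2 higher in all groups, the block moved the unadjusted limma p of the mean change to 0.0752, against 0.299 without it. Leaving out 1 array gave 0 to 2 calls in the EglN2 shRNA line, 0 to 0 in the Scr line, for the difference of changes and at day 0, 0 to 15 at day 2, 0 to 20 in the mean change and 0 to 6 in the mean line difference. The cause of these moves was not tested. With 2 arrays a group and a median SE of 0.12, a member change whose interval crossed 0 could not be told from none. Passing the adjustment took more than an interval clear of 0. HERPUD1 had such intervals in both lines, and EGLN2 changed by -0.67 (SE 0.11) in the EglN2 shRNA line, yet neither passed. Signal over background was not used here.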

Other observations

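As a description, the mean of the members' centred levels was 0.04 and 0.06 at day 2, against -0.01 and -0.02 at day 0, in the EglN2 shRNA line, and 0.05 and 0.03 at day 2, against -0.08 and -0.07 at day 0, in the Scr line. Among 19450 single-gene probe sets that are no members, those with the highest Pearson r with this profile over the 8 arrays were RCN1 (0.986), an ER calcium-binding protein, PCTP (0.986), SLC41A1 (0.985), ZNF585B (0.984) and RRAS (0.979). The arrays share 4 groups and 1 normalization, and 5 were picked out of all compared.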
